A study of Rattus norvegicus with 32 samples.

Results

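The genes described here are 32 ion channel and channel-related genes of the hippocampus in the R237H rat, a model of Alexander disease. They were chosen by name and by listing. A gene entered when its symbol carried a channel family prefix (Kcn, Scn, Hcn, Clcn, Trp, Ano, Kctd or P2rx) and it stood in at least 1 of the 4 tables of genotype differences that accompany the study, with Kcnj10 and Kcnj13 left out. The rule found 32 of the 23822 genes in the count table, and 3289 of these genes carried a symbol at all. No Hcn, Trpa, Trpc or Trpv gene met it. Each table was used only in part. These parts were the top 1999 rows by p-value, or 1855 rows for P56 females, and a gene is called listed below where it stands in those rows. The genotype contrast itself thus selected the members.

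Hippocampal RNA came from heterozygous Gfap+/R237H rats and wild-type (WT) rats on the Crl:CD(SD) background, at P21 and P56, with the sexes separate. R237H is a missense mutation in Gfap, the intermediate filament gene of astrocytes, and it is carried throughout life in the germline. Each age had 4 R237H males and 4 WT males. The females numbered 4 of each genotype at P56, while the younger age held 5 mutant and 3 WT females. The study describes the rats as littermates.

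Voltage-gated potassium channels repolarize the neuron after each action potential, sodium channels start it, and inward rectifier and tandem-pore potassium channels set the resting potential. Astrocytes carry inward rectifiers that take up potassium released by active neurons, and microglia carry purinergic P2X channels, which ATP opens, and tandem-pore channels. KCTD proteins share the tetramerization domain of potassium channels but are mostly adaptors for ubiquitin ligases or partners of receptors, not channels.

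Library totals ran from 21580397 to 55544871 estimated counts (median 46157271), and all but 2 held at least 38503686. Values of single rats are given as normalized CPM (counts scaled to the size of the library) on a scale shared by all 32 rats, and differences as log2 fold changes, R237H over WT, with their standard errors (SE). A change was called at a false discovery rate (FDR) under 0.01 over all genes tested. Gfap ran from 493 to 1082 CPM in the WT rats and from 3120 to 6989 CPM in the R237H rats, with no overlap, although the level of the transcript does not show the mutation itself. In bulk tissue, fewer cells of a type and less RNA per cell cannot be told apart. Of the marker lists, microglial genes (13 of 14 with a symbol) summed to 347 to 498 CPM in the WT rats and 931 to 2441 CPM in the R237H rats. At P56, 11 of the 13 were called higher and 0 lower in each sex, and the values of Tmem119 overlapped between the genotypes. Pyramidal neuron genes (4 of 12 with a symbol) summed to 602 to 1231 CPM in WT and 374 to 662 CPM in R237H. Only genes in the study's tables of genotype differences had a symbol, so all these lists favour changed genes. By stereology in dorsal hippocampus, the study detected no change in CA1 or CA3 pyramidal cells at P21 or P56. It found fewer dentate granule cells at P56. Astrocyte genes (8 of 11 with a symbol, Gfap among them) did not share a direction. At P56, 1 was called higher and 3 lower in each sex, with a median log2 fold change of -0.58 in males and -0.44 in females. The part of these cell types in the results below was not tested. The libraries of 5 rats stood apart in choroid plexus transcripts, which bears on Kcne2 and Trpm3 as described with those genes.

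All 32 genes passed the filter on low counts in every genotype comparison. In males at P56, 14 were called higher and 15 lower in R237H, against 16.8% and 11.1% of all 15097 genes tested. In females at P56, 14 were called higher and 16 lower (background 17.0% and 11.1%). At P21 the calls were 11 higher and 7 lower in males (background 12.4% and 4.82%) and 8 higher and 1 lower in females (background 7.06% and 0.753%). Because those contrasts chose 68 of the 128 gene-by-group combinations, these counts describe the members and nothing is read from them. The median log2 fold change of the members was -0.44 in males at P56 against -0.01 over all genes, and the median size of the change, ignoring sign, was 0.96 against 0.37. On log2(TPM + 0.1), where TPM is the abundance scaled by transcript length and library, the median of all genes itself moved by 0.40 in males and 0.26 in females at P56. Uncentred, that scale gave 14 members higher and 2 lower in each sex at P56, and 3728 genes higher and 189 lower overall in males in place of 2531 and 1677. Centred on the median gene of each rat, it gave 14 higher and 15 lower in males and 13 higher and 16 lower in females. The changes below come from the edgeR fit on scaled counts, not from TPM. There the median of all genes was -0.01 in males and -0.03 in females at P56, so the changes are relative to the bulk of genes. The values of the genotypes did not overlap for 30 members in P56 males (42.0% of all genes tested), 30 in P56 females (40.7%), 24 in P21 males (30.5%) and 19 in P21 females (21.4%).

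**Figure D1:**
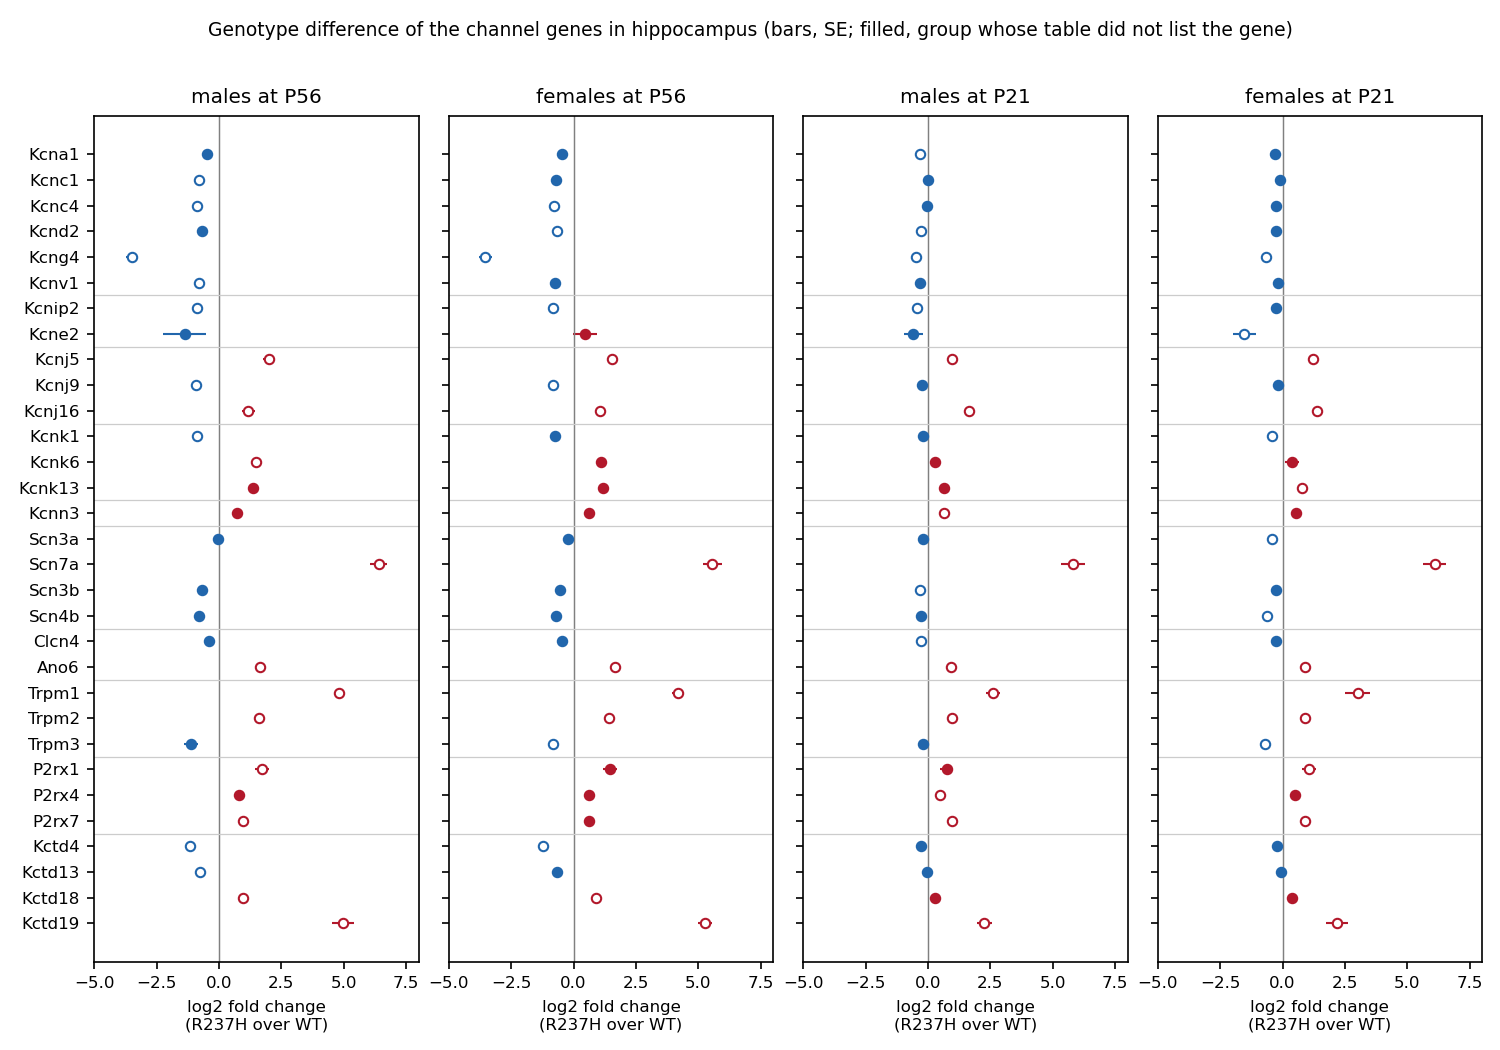
Log2 fold change (R237H over WT, x axis) with SE of 31 of the 32 genes, by channel family (y axis, grey lines part the families), in 4 panels for sex and age. Red points lie above 0 and blue points below; filled points are combinations in which the gene was not in the rows used of the group's own table. Scn7a, Trpm1 and Kctd19 lie farthest to the right in each panel, and Kcng4 farthest to the left at P56.

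The other 60 combinations pair a gene with a group whose table did not list it in the rows used. The gene then entered through another group, and these combinations were tested, although standing outside those rows also depends on the rats of the group and says nothing of the rows not used. At P56, 8 of 11 such genes passed in males (Kcnk13, Kcnn3 and P2rx4 higher; Kcna1, Kcnd2, Scn3b, Scn4b and Trpm3 lower), against a background of 16.8% and 11.1%. In females at P56, 15 of 17 passed, 6 higher (Kcnk6, Kcnk13, Kcnn3, P2rx1, P2rx4, P2rx7) and 9 lower (among them Clcn4, Kcna1, Kcnc1, Kcnk1, Kcnv1, Kctd13, Scn3b and Scn4b). Kcne2 and Scn3a passed in neither sex at P56. At P21, 2 of 16 passed in males (Kcnk13 higher, Kctd4 lower) and 0 of 16 in females, where 8 had an unadjusted p under 0.05 (25.2% of all genes did), the edgeR likelihood-ratio test also gave 0 and DESeq2 gave 1. At FDR under 0.01 the P21 shares are near or below the background. At an unadjusted p under 0.05 they are above it, with 10 of 16 in males against 5808 of 14953 genes. The genes were chosen for a change in another group, so nothing is read from these shares. All 25 calls over the 4 groups took the direction of the group that had listed the gene, as did 59 of the 60 combinations whether called or not. The exception was Kcne2 in females at P56. How often all genes share a direction between groups was not computed, so nothing is read from this agreement either. With each rat left out in turn, 6 of the 8 male and 9 of the 15 female calls at P56 held in every fit, and 0 of the 2 calls of P21 males did.

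Among the voltage-gated potassium channel genes, the estimates of all 7 members lay below 0 in each of the 4 groups. Kcng4 encodes a modifier subunit that conducts only in combination with Kv2 subunits. At P56 it measured 19.5, 18.0, 23.9 and 33.3 CPM in the WT males and 1.66, 2.19, 2.78 and 1.50 CPM in the R237H males. The WT females of that age measured 20.5, 25.9, 31.3 and 17.0 CPM and the R237H females 2.31, 1.79, 2.71 and 1.40 CPM. The lowest WT rat was thus several times above the highest R237H rat in each sex, and the log2 fold changes were -3.49 (SE 0.26) and -3.54 (SE 0.25). At P21 it measured 20.1, 23.6, 22.3 and 26.4 CPM in WT males and 15.2, 14.2, 17.1 and 19.0 CPM in R237H males, a log2 fold change of -0.49 (SE 0.10). In P21 females the 3 WT rats measured 20.3, 21.3 and 20.2 CPM and the 5 R237H rats 14.8, 12.2, 11.4, 11.9 and 14.7 CPM, a log2 fold change of -0.66 (SE 0.11). WT levels were similar at both ages, so the wider gap at P56 lay in the R237H rats. Kcng4 was listed in all 4 tables, so no test is given for it.

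**Figure D2:**
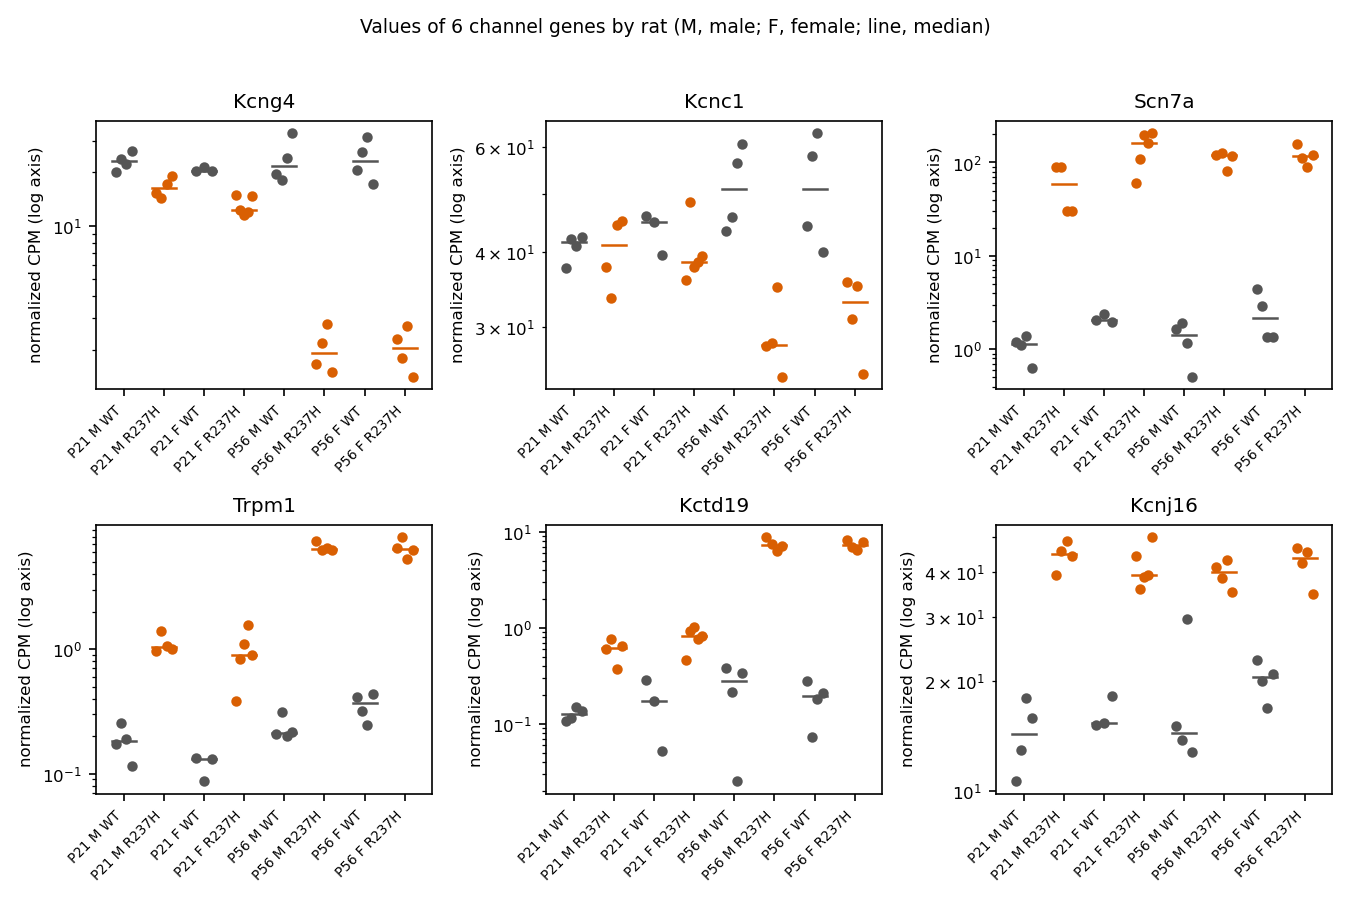
Normalized CPM (y axis, log scale) of 6 genes in every rat, by age, sex and genotype (x axis; M, male; F, female); grey points are WT, orange points R237H and lines the group medians. Kcng4 falls apart by genotype mainly at P56, Scn7a already at P21, and Kcnc1 overlaps at P21 in both sexes.

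The promoter windows of Kcng4, Scn7a and Trpm1, which had the largest differences among members with a sequence entry, are shown here to place them beside their values. They run from 250 bases before to 50 bases after the RefSeq start on GRCr8, 5′ to 3′ on the strand of the gene, and capitals mark a CCAAT box (CCAAT) or a GC box (GGGCGG), searched on both strands.
Kcng4, chr19:64597839-64598138, minus strand: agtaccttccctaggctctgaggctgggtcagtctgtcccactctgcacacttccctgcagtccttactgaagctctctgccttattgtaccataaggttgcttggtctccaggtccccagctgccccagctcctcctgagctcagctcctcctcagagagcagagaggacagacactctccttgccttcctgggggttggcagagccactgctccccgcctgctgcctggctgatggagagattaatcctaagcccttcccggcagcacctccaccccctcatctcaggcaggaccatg
Scn7a, chr3:71846235-71846534, minus strand: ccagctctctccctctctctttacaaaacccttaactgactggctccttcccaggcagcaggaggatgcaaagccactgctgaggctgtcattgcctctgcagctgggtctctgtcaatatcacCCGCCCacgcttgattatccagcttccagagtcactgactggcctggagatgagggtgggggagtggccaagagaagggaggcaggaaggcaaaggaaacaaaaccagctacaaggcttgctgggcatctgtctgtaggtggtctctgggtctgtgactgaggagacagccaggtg
Trpm1, chr1:127130436-127130735, plus strand: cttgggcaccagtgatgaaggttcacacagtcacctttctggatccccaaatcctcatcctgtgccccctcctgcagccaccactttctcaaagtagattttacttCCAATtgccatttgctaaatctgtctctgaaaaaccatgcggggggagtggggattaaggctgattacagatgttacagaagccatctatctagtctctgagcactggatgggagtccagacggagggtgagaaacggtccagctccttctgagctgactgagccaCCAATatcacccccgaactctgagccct
Kcng4 held neither motif, Scn7a 1 GC box on the opposite strand and Trpm1 a pair of CCAAT boxes. Of the 32 genes, 24 had an entry, and 23 were used because Trpm3 had more than 1. A CCAAT box was found in 5 of the 12 members with estimates above 0 at P56 in both sexes and 2 of the 11 with estimates below 0, against 37.5% of all 33469 promoters, and a GC box in 5 and 4, against 33.1%. AP-1 (TGACTCA), CRE (TGACGTCA) and TATA box (TATAAA) motifs were found in 0 of the 23, against 4.6%, 1.8% and 14.2% of all promoters. STAT (TTCNNNGAA) was found in P2rx1, and an E-box (CACGTG) in Ano6 and Clcn4, against 8.9% and 6.4%. The 3 windows printed above hold 2, 2 and 4 CpG dinucleotides, against a median of 7 over all promoters and medians of 12 and 13 over the members above and below 0. These groups go by the sign of the estimate, and among the members below 0 Scn3a was called in neither sex at P56 and Clcn4 not in males.

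The Kcnc genes encode Kv3 channels, whose fast closing lets neurons fire at high rates. Kcnc1 in females at P56 fell by 0.71 (SE 0.17, FDR 0.00642, kept in 3 of 8 fits that each left out 1 rat), from 44.3, 57.9, 63.3 and 40.1 CPM in WT to 35.6, 31.0, 35.2 and 25.0 CPM in R237H, without overlap. Kcnc4, listed in both P56 tables, was lower at -0.88 (SE 0.12) in males and -0.78 (SE 0.13) in females. At P21 neither gene passed in either sex, with log2 fold changes from -0.27 to -0.02. For Kcnc1 the P21 estimate was -0.02 (SE 0.09) in males.

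Kcnd2 encodes the Kv4.2 subunit of the dendritic A-type current, and Kcnip2 a calcium-binding partner of Kv4 channels. In males at P56, where its table did not list it, Kcnd2 measured 185, 157, 184 and 148 CPM in WT and 101, 113, 107 and 91.0 CPM in R237H. The genotypes did not overlap, and Kcnd2 fell by 0.69 (log2 scale, SE 0.11, FDR 0.000704). Females of that age gave -0.68 (SE 0.09). Kcnip2, second among the members in TPM though not in CPM, measured 253, 212, 201 and 296 CPM in WT males at P56 and 149, 120.3, 129 and 114 CPM in R237H males (log2 fold change -0.88, SE 0.14), and it was also lower in P21 males at -0.44 (SE 0.05). In P21 females, where Kcnip2 was tested, the log2 fold change was -0.25 (SE 0.11, FDR 0.175).

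Kcna1 encodes an axonal channel that dampens excitability. Its P56 differences were tested in both sexes. In males it measured 294, 271, 294 and 269 CPM in WT and 208, 189, 209.9 and 189.9 CPM in R237H, and fell by 0.48 (log2 scale, SE 0.08, FDR 0.00143). In females it fell by 0.45 (SE 0.10, FDR 0.00419, kept in 3 of 8 fits without 1 rat). Its P21 estimates were close to each other at -0.31 (SE 0.05) in males and -0.30 (SE 0.12, FDR 0.151) in females. Kcnv1, a modifier subunit like Kcng4, fell by 0.73 in females at P56 (SE 0.12, FDR 0.000849), from 33.3, 37.9, 43.9 and 43.8 CPM to 21.3, 22.9, 26.5 and 26.1 CPM, and was lower in males at -0.79 (SE 0.11). It did not pass at P21 (-0.32, FDR 0.0136 in males; -0.20, FDR 0.211 in females).

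The inward rectifier genes did not share a direction. Kcnj16 encodes a subunit that pairs with the main astrocyte potassium channel. It measured 10.6, 12.9, 18.0 and 15.8 CPM in WT males at P21 and 39.3, 45.8, 48.7 and 44.1 CPM in R237H males, a log2 fold change of 1.63 (SE 0.14). At P56 the WT males measured 15.1, 13.8, 29.7 and 12.8 CPM and the R237H males 41.3, 38.6, 43.1 and 35.3 CPM (log2 fold change 1.18, SE 0.25). The P56 difference was not the larger of the pair, and WT male s69-A, at 29.7 CPM, lay well above the other WT males. Kcnj5, a G-protein-gated subunit known mainly from heart, was higher at 1.99 (SE 0.24) in males and 1.56 (SE 0.22) in females at P56. Its neuronal relative Kcnj9 was lower, from 78.9, 72.6, 82.6 and 93.5 CPM in WT males to 42.3, 41.6, 47.9 and 35.5 CPM in R237H males at P56 (-0.94, SE 0.11), and at -0.83 (SE 0.12) in females. At P21, where Kcnj9 was tested, it did not pass in males (-0.23, SE 0.08, FDR 0.0469) or females (-0.19, SE 0.09, FDR 0.256).

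Of the tandem-pore channels, Kcnk13, which carries a resting potassium current of microglia, rose in the 3 groups where it was tested. At P56 Kcnk13 measured 1.82, 2.60, 1.75 and 2.07 CPM in WT males and 4.76, 5.88, 5.18 and 4.79 CPM in R237H males. The females measured 2.42, 1.61, 2.29 and 2.57 CPM in WT and 5.21, 4.69, 5.67 and 4.99 CPM in R237H. Every R237H rat exceeded every WT rat at P56, with log2 fold changes of 1.34 (SE 0.19, FDR 0.00036) and 1.19 (SE 0.18, FDR 0.000478). In males at P21 the change was 0.63 (SE 0.13, FDR 0.00273), and it was 0.58 with FDR 0.0108 without R237H male R1781H. Kcnk6 measured 3.20, 1.56, 2.35 and 2.20 CPM in WT females at P56 and 5.21, 4.82, 5.42 and 4.99 CPM in R237H females, and rose by 1.12 (SE 0.21, FDR 0.00183). It did not pass at P21 in either sex (0.26, FDR 0.314 and 0.37, FDR 0.468). Kcnk1, expressed in neurons and astrocytes, went the other way, and in females at P56 it fell by 0.76 (SE 0.11, FDR 0.000377).

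Kcnn3 encodes a small-conductance channel that calcium opens. The P56 males measured 5.64, 6.09, 4.21 and 4.73 CPM in WT and 8.39, 8.54, 8.06 and 8.29 CPM in R237H, so that Kcnn3 rose by 0.71 (SE 0.15, FDR 0.00417). It rose by 0.60 in the females (SE 0.12, FDR 0.00284). Leaving out any of the 4 R237H males raised the FDR past the threshold (0.0103 to 0.0161, log2 fold change 0.70 to 0.72), as did leaving out R237H females s65-C (FDR 0.0115) or s70-C (FDR 0.0101). The R237H rats were close together while the WT rats spread more. At P21 the estimates were of like size, 0.65 (SE 0.11) in males and 0.56 (SE 0.17, FDR 0.0577) in females.

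The sodium channel genes split by kind. Scn7a encodes an atypical channel that senses extracellular sodium and is known from glia of the brain's sensory circumventricular organs. At P56 it measured 1.64, 1.92, 1.18 and 0.505 CPM in WT males and 121, 126, 80.6 and 116 CPM in R237H males (log2 fold change 6.40, SE 0.34). Scn7a in the females measured 4.38, 2.93, 1.37 and 1.36 CPM in WT and 157, 111, 88.5 and 122 CPM in R237H (5.56, SE 0.38). This gap was as wide at P21, at 5.81 (SE 0.46) in males and 6.11 (SE 0.46) in females. The R237H males at P21 fell into a pair at 88.8 and 90.1 CPM and a pair at 30.2 and 30.1 CPM, and the R237H females at P21 ranged from 60.9 to 208 CPM. No other member had a higher fold in any of the 4 groups.

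The auxiliary sodium channel genes Scn3b and Scn4b, whose products anchor and modulate the pore in neurons, fell at P56. Scn3b, the most abundant member, measured 833, 723, 889 and 903 CPM in WT males and 527, 552, 505 and 474 CPM in R237H males. In females it measured 876, 805, 779 and 836 CPM in WT and 599, 569, 569 and 511 CPM in R237H. Neither sex overlapped, with log2 fold changes of -0.68 (SE 0.10, FDR 0.000383) and -0.56 (SE 0.08, FDR 0.000414), neither of them from a table that had listed it. Scn4b fell by 0.82 (SE 0.13, FDR 0.000676) in males and 0.72 (SE 0.13, FDR 0.0011) in females. Scn3a, the pore-forming subunit of the immature brain, did not pass at P56 in males (-0.06, SE 0.18, FDR 0.814) or females (-0.23, SE 0.11, FDR 0.119). In P21 females, the only group whose table listed Scn3a, it was at -0.42 (SE 0.12) and was not called here. In males at P21 it measured 62.8, 60.0, 61.0 and 58.9 CPM in WT and 54.3, 51.4, 52.4 and 52.7 CPM in R237H, which did not overlap, at an FDR of 0.0104.

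Ano6 encodes a calcium-activated scramblase that exposes phosphatidylserine on the cell surface. It measured 33.9, 31.6, 40.9 and 34.4 CPM in WT males at P56 and 116, 102, 82.0 and 135 CPM in R237H males (log2 fold change 1.65, SE 0.15), with the same estimate in females. At P21 it was 0.91 (SE 0.06) in males and 0.89 (SE 0.15) in females. Clcn4, an endosomal chloride-proton exchanger, fell by 0.48 in females at P56 (SE 0.10, FDR 0.003, kept in 3 of 8 fits without 1 rat) and did not pass in males at P56 (-0.41, SE 0.13, FDR 0.0265).

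Trpm1, best known from retinal bipolar cells and melanocytes, was near the limit of detection in WT. Its P56 males measured 0.210, 0.313, 0.201 and 0.216 CPM in WT and 7.36, 6.26, 6.46 and 6.28 CPM in R237H (4.81, SE 0.22). At P21 the R237H males measured 0.962, 1.40, 1.07 and 1.01 CPM against 0.173, 0.254, 0.191 and 0.116 CPM in WT (2.60, SE 0.27). Every R237H rat at P56 lay above every R237H rat at P21, in males and also in females. Trpm2, which oxidative stress opens in immune cells and neurons, was higher at 1.59 (SE 0.19) in males and 1.41 (SE 0.15) in females at P56, and at 0.94 (SE 0.07) and 0.88 (SE 0.18) at P21.

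Kcne2, an auxiliary subunit of potassium channels, and Trpm3, a heat- and steroid-gated channel, are both strongly expressed in choroid plexus epithelium, which lies against the hippocampus. Choroid plexus markers (13 of 15 with a symbol) summed to 2429 CPM in WT male s66-B at P56, 1396 CPM in WT female R1797C at P21, 577 CPM in R237H female s70-C at P56, 405 CPM in WT male R1781C at P21 and 288 CPM in R237H male s70-B at P56, and to between 10.4 and 62.9 CPM in the other 27 rats. Kcne2 was 31.4, 16.5, 9.68, 7.25 and 7.38 CPM in those 5 rats in that order, and between 1.76 and 4.02 CPM in the others. The defining marker Ttr, the transthyretin gene, reached 1671 CPM in s66-B and 1005 CPM in R1797C.

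The genotype estimates of Kcne2 followed those rats. In males at P56 the log2 fold change was -1.38 (SE 0.86, FDR 0.225), 0.55 without WT male s66-B and -1.90 without R237H male s70-B. Each of these fits left out 1 rat, so the other of the pair stayed in. For the P56 females it was 0.46 (SE 0.48, FDR 0.472), and -0.35 without R237H female s70-C. In P21 females, the group whose table listed it, it was -1.52 (SE 0.47), and -0.28 without WT female R1797C. In P21 males it was -0.59 (SE 0.37, FDR 0.268), and 0.04 without WT male R1781C. Kcne2 was the only member whose estimates differed in sign between groups.

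Trpm3 was high in WT rats s66-B and R1797C, and its estimates stayed below 0 without them. Among males at P56 it measured 56.7, 103, 79.3 and 34.9 CPM in WT, with s66-B at 103 CPM, and 30.3, 30.7, 32.8 and 28.6 CPM in R237H. It fell by 1.14 (log2 scale, SE 0.27, FDR 0.00766), and the value was -0.87 (FDR 0.0137) without s66-B. The FDR passed the threshold in 1 of 8 fits that left out 1 rat and reached 0.0251. In females at P56, whose WT rats had low choroid plexus markers, it was lower at -0.82 (SE 0.12), from 56.3, 59.4, 45.9 and 56.6 CPM to 35.2, 29.4, 26.6 and 33.9 CPM. In P21 females it was -0.69 (SE 0.18), and -0.45 without R1797C.

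**Figure D3:**
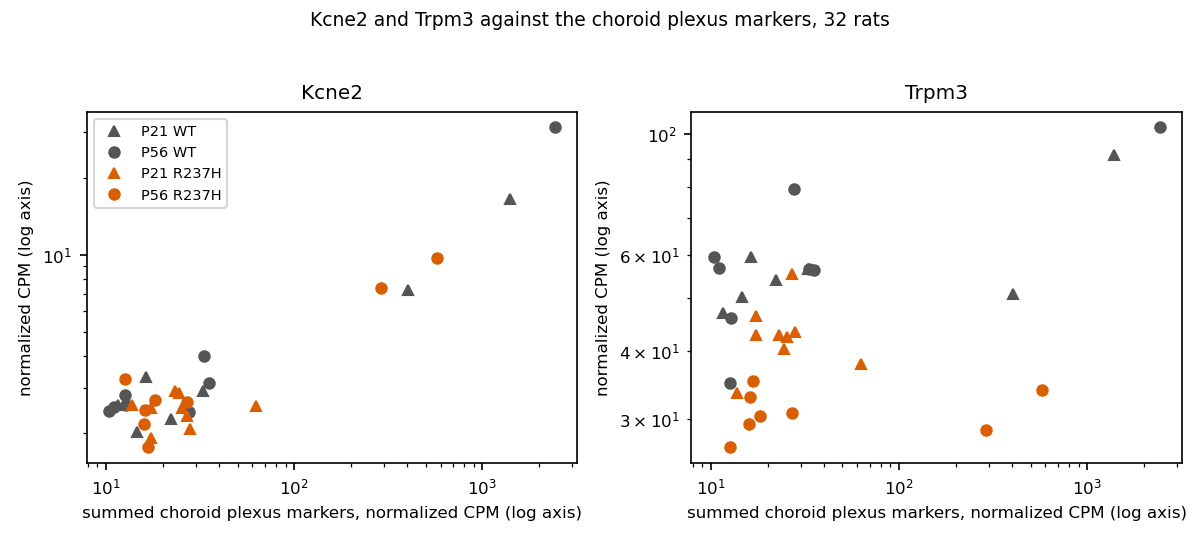
Normalized CPM of Kcne2 and Trpm3 (y axes, log scale) against the summed CPM of the choroid plexus markers (x axes, log scale) in 32 rats; triangles are P21, circles P56, grey WT and orange R237H. Kcne2 rises in the 5 rats to the right, from 7.25 CPM upwards, while Trpm3 lies mostly lower in R237H than in WT also among the rats at the left.

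The estimates of all 3 P2X genes lay above 0 in the 4 groups. At P56, 3 were called higher in each sex (background 16.8% in males and 17.0% in females). At P21, 2 were called in males (background 12.4%) and 1 in females (background 7.06%). Some of these groups had listed the genes in their own tables, so nothing is read from these counts. P2rx7, the high-threshold ATP receptor of microglia, rose in females at P56 by 0.63 (SE 0.12, FDR 0.00167), from between 19.0 and 23.3 CPM in WT to 38.7, 31.5, 33.9 and 27.9 CPM. P2rx4, an ATP receptor induced in reactive microglia, measured 14.1, 11.0, 15.2 and 11.5 CPM in WT males at P56 and 20.8, 21.8, 23.1 and 23.6 CPM in R237H males, and rose by 0.81 (SE 0.13, FDR 0.000725). The P56 females gave a rise of 0.62 (SE 0.14, FDR 0.00448), and 3 of the 8 fits that left out 1 rat, each without a WT female (s66-D, s69-D or s71-D), gave an FDR of up to 0.0119. P2rx1, a fast receptor of platelets and smooth muscle, rose in females at P56 by 1.46 (SE 0.27, FDR 0.00161), although its WT level was only 0.785 to 1.71 CPM. In males at P21 P2rx1 did not pass (0.75, SE 0.27, FDR 0.0604), nor did P2rx4 in P21 females, where the genotypes overlapped (0.49, SE 0.17, FDR 0.0876). P2rx1 was listed in P21 females (1.07, SE 0.29) and was not called there. The same held in that group for Kcne2, Kcnk1, Kcnk13, Scn3a, Scn4b and Trpm3.

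The KCTD genes also split. Kctd19, known from meiosis in the testis, was at 0.0251 to 0.377 CPM in the WT rats of both ages. The R237H males at P56 measured 8.88, 7.50, 6.32 and 7.16 CPM (4.96, SE 0.45), and the females 8.22, 6.99, 6.53 and 7.80 CPM (5.28, SE 0.29). At P21 the R237H rats of both sexes lay between 0.371 and 1.02 CPM, below every R237H rat at P56, with log2 fold changes of 2.25 (SE 0.30) and 2.18 (SE 0.46). Kctd4, an excitatory neuron gene, was lower at -1.17 (SE 0.16) in males and -1.23 (SE 0.13) in females at P56. The P21 males, in which Kctd4 was tested, gave a log2 fold change of -0.27 (SE 0.07, FDR 0.00969), and the FDR was between 0.0103 and 0.0343 without each of the 8 rats in turn. Kctd13, an adaptor of a ubiquitin ligase, fell in females at P56 by 0.68 (SE 0.12, FDR 0.00134), and its P21 estimates were -0.05 (SE 0.06) in males and -0.05 (SE 0.09) in females. Kctd18 was higher at P56 at 0.94 (SE 0.13) in males and 0.90 (SE 0.09) in females, and it did not pass at P21 (0.28, FDR 0.0147 in males; 0.40, FDR 0.0218 in females).

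Among the R237H rats at P56, the highest rat carried the same number in its name in both sexes for 12 of the 32 members, the lowest rat for 17, both for 6 (Ano6, Kcng4, Kcnj5, Kcnj9, Kctd18 and Trpm2) and neither for 9. Not every number occurs in both sexes. The share over all genes was not computed, so these counts describe the members and nothing is read from them. The 3 genes that follow were chosen after their values were seen. Trpm2 was highest in s69-B among the males (72.7 CPM) and s69-C among the females (65.5 CPM), and lowest in s70-B (35.8 CPM) and s70-C (39.9 CPM). Kcnj5 had the same highest and lowest rats, at 10.7 and 4.89 CPM in males and 10.1 and 5.42 CPM in females. Ano6 ran the opposite way, lowest in s69-B and s69-C (82.0 and 88.8 CPM) and highest in s70-B and s70-C (135 and 138 CPM). The summed microglial markers were highest in s69-B and s69-C (2441 and 2209 CPM) and lowest in s70-B and s70-C (1543 and 1618 CPM). Rats s70-B and s70-C also had the highest choroid plexus sums (288 and 577 CPM) and the lowest pyramidal neuron sums (374 and 393 CPM) of their groups. The library of s70-B was small, at 25420919 counts. Whether the number in a rat's name marks a litter or a collection day is not given in the sources used here. The part of tissue content or depth was not tested.

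The age by genotype term asks whether the genotype difference at P56 departs from that at P21. It could be tested for the members that neither table of the sex had listed. Of 5 such genes in males 0 passed with edgeR (background 5.81% higher and 4.31% lower), and 3 had an unadjusted p under 0.05 (36.0% of all genes did). These were Kcnk13 (0.69, SE 0.21, FDR 0.0271), Scn4b (-0.55, SE 0.17, FDR 0.03) and Trpm3 (-0.94, SE 0.29, FDR 0.0313). Of 10 such genes in females 0 passed with the quasi-likelihood test, 1 with the likelihood-ratio test (background 1.49% higher and 0.658% lower), and 6 had an unadjusted p under 0.05 (22.7% of all genes did). The smallest FDR in females was that of Kctd13 (-0.62, SE 0.15, FDR 0.0205). For members that a table of the sex had listed, the estimates are a description. They were farthest from 0 for Kcng4 (-3.02 in males, -2.88 in females), Kctd19 (2.69 in males, 3.10 in females) and, in males, Trpm1 (2.19). The sexes share no rats.

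The sex by genotype term was tested for 9 members at each age, and 0 passed at either age, with 0 at an unadjusted p under 0.05 (2.01% of all genes at P56 and 2.98% at P21) and 0 by the likelihood-ratio test. Over all genes edgeR also called 0 at each age. At P21 no male and female share a number in their names, so sex and that number cannot be told apart there. The smallest FDR was 0.999, and the interval of most differences is wide, for example -0.15 (SE 0.12) for Scn3b and 0.11 (SE 0.25) for Kcnk13 at P56, males minus females. As a description, the log2 fold changes of the 32 genes in males and females had a Pearson r of 0.981 at P56 and 0.986 at P21. The points of each comparison share libraries, and the few genes of large fold weigh heavily.

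In WT rats, whose age difference the rule did not use, 0 of 30 members tested in males and 0 of 31 in females passed between P21 and P56 (background 0.741% higher and 1.70% lower in males, and 0.415% and 1.14% in females). At an unadjusted p under 0.05 there were 9 and 11, against 26.1% and 23.8% of all genes. The edgeR likelihood-ratio test called 4 members in males and 3 in females, and DESeq2 called 4 in each. Kctd19 was too low to test in both sexes and Trpm1 in males. The genes nearest the threshold were Kcnc4 in males (0.60, SE 0.12, FDR 0.0137), Kctd4 in males (0.69, SE 0.14, FDR 0.0151) and females (0.68, SE 0.12, FDR 0.0126), and P2rx7 in females (0.70, SE 0.11, FDR 0.0105), all toward P56. Scn3a lay toward P21 in males (-0.42, SE 0.16, FDR 0.125) and females (-0.47, SE 0.10, FDR 0.0279). Age and the time of collection cannot be told apart.

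Per length, in TPM, the members spanned a wide range in the WT rats at P21. Scn3b was highest at 352 ± 15.3 TPM (SD, n = 7), followed by Kcnip2 at 202 ± 12.3 TPM and Kctd13 at 80.7 ± 3.07 TPM. Clcn4 (64.3 ± 2.08 TPM), Kcnd2 (62.1 ± 0.982 TPM) and Kcna1 (55.4 ± 1.94 TPM) were lower than these. The lowest were Scn7a (0.366 ± 0.152 TPM), Kctd19 (0.0857 ± 0.0435 TPM) and Trpm1 (0.07 ± 0.0252 TPM), and Kctd19 and Trpm1 differed by less than the SD of either. The 18 members below 0 in males at P56 had a median P21 WT level of 34.6 TPM, and the 14 above 0 one of 3.12 TPM. The rank correlation of that level with the P56 log2 fold change was -0.646 in males and -0.732 in females over 32 genes. It is a description only, since the genes were selected for change, and the levels and the fold changes come from different rats. Genes as low in WT as Kctd19 and Trpm1 could hardly be listed unless higher in R237H. That end of the range was thus largely fixed by the selection.

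**Figure D4:**
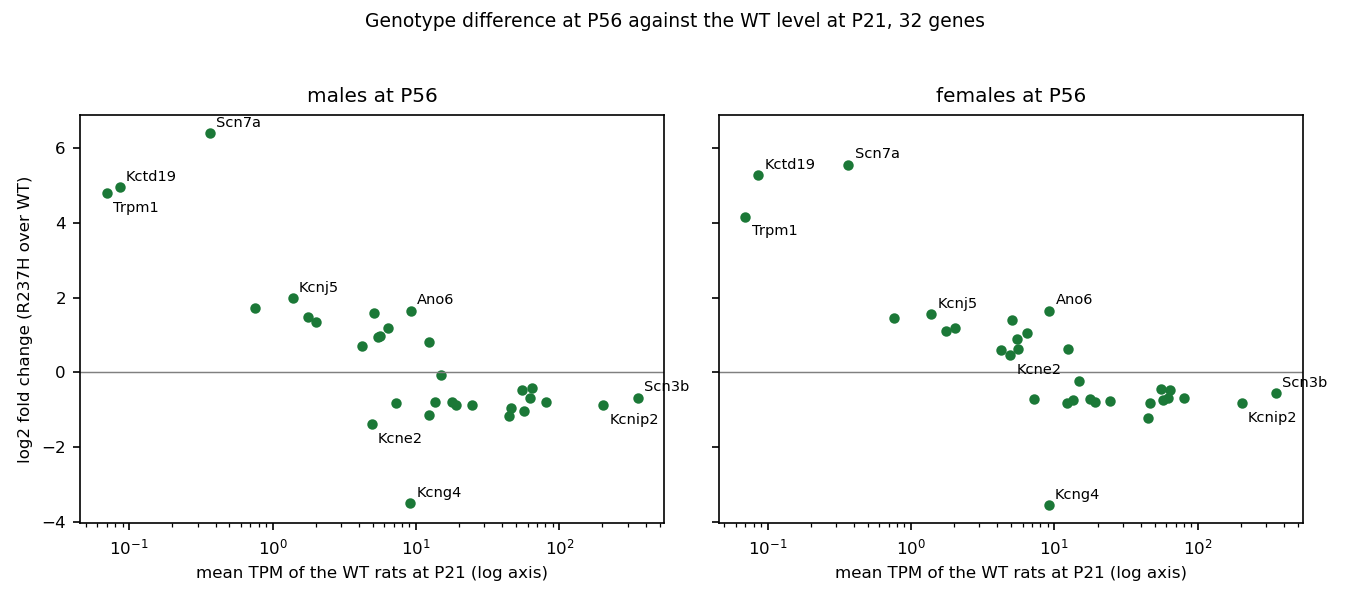
Log2 fold change at P56 (R237H over WT, y axes) against the mean TPM of the 7 WT rats at P21 (x axes, log scale) for the 32 genes, males at the left and females at the right. Genes under 1 TPM lie above 0, and Scn3b and Kcnip2, the most abundant, lie below 0. The selection left the lowest genes little room to lie below 0.

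The rows used of each table ended at a rank, where the copy used here was shortened, and not at a size of change. The last member inside goes by that rank. The nearest outside is the unlisted member with the smallest p by edgeR's likelihood-ratio test here, since its rank in the study is not known. For males at P56 the last member inside was P2rx1 (1.72) and the nearest outside Kcnk13 (1.34), and in females at P56 Kcnc4 (-0.78) and Kcnk13 (1.19). For P21 males these were Kcnd2 (-0.26) and Kcnk13 (0.63), and for P21 females Kcnk1 (-0.41) and Kctd18 (0.40), all as log2 fold changes.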

How the data were processed

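Hippocampal RNA of 32 rats was sequenced as stranded polyA libraries. Per the labels and the methods, reads were base called with bcl2fastq 2.20.0.422, trimmed with Skewer, aligned with STAR and quantified with RSEM; the genome build is not given in the sources used here. The authors deposited expected counts and TPM per gene, both from RSEM, for each rat. The study's tables of genotype differences were used for gene symbols and listing only, in shortened copies that hold the top rows of each, and their fold changes and p-values were not used.

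Expected counts were rounded and fitted within sex and age with edgeR 4.0.16 (filterByExpr, TMM, quasi-likelihood F-test, Benjamini-Hochberg FDR under 0.01 over all genes) in R 4.3.3. This genotype fit was tried on counts simulated from P56 males and from P21 females. The other groups, terms and methods were not simulated. Single-rat CPM were scaled by TMM factors over all 32 rats. Other choices tried were FDR under 0.05, a block on the title number, each rat left out, a single model of all rats, limma 3.58.1 on log2(TPM + 0.1), DESeq2 1.42.0, edgeR's likelihood-ratio test, RLE scaling, and the low-count filter dropped or set to a minimum of 10 counts in every rat. The members, marker lists and motifs were chosen with earlier results of these data known. Members were named, with single-rat values for the largest differences and for some of the genes that passed where their group's table did not list them. Marker symbols came from the tables of genotype differences, which favours changed genes. All 32 members matched RefSeq by symbol, and promoter windows are RefSeq's on GRCr8. Rats are separate animals. The values of 1 member are not reported here, and it is counted in the totals over members.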

Additional observations from a re-analysis of the deposited data

Results flagged for a closer look

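In groups of 4 or 5 rats, 7 of 217 gene-by-group sets held a rat far from the others by Dixon's criterion, where chance gives about 10.8. Kcne2 was at 31.4 CPM in WT male s66-B at P56, 7.38 CPM in R237H male s70-B at P56 and 7.25 CPM in WT male R1781C at P21, and these are the rats with high choroid plexus markers. Trpm1 was at 0.313 CPM in WT male s66-B, against 0.201 to 0.216 CPM in the other WT males at P56. Kcnj16 was at 29.7 CPM in WT male s69-A, against 12.8 to 15.1 CPM in the others. R237H female R1789B at P21 had 48.4 CPM of Kcnc1, against 36.0 to 39.4 CPM in the other R237H females. P2rx4 was at 28.7 CPM in R237H female s64-A at P56, against 20.1 to 21.5 CPM in the others.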

How the results depend on the processing

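RLE scaling and dropping the filter kept every count of members within 1.5 times its value, and no called log2 fold change of a member reversed under RLE scaling, TPM values or any rat left out. On uncentred log2(TPM + 0.1), which shifts all genes, the lower members fell to 2 in each sex at P56 and 0 in P21 females, and the calls among members a group's table did not list to 3 in P56 males, 6 in P56 females and 1 in P21 males. The centred scale, chosen after seeing the data, gave 5 for P21 males. In P21 males those calls were 5 with the likelihood-ratio test, 6 with DESeq2, 1 with at least 10 counts in every rat, 1 with all rats in one model and 9 at FDR under 0.05. The lower members there were 1 with all rats in one model and 13 at FDR under 0.05. In P21 females the lower members were 4 with the likelihood-ratio test or DESeq2, 2 with all rats in one model and 5 at FDR under 0.05, and the unlisted calls 1 with DESeq2, 2 with all rats in one model and 1 at FDR under 0.05. The WT age difference gave 4 members in males with either of the likelihood-ratio test and DESeq2, and 3 and 4 in females, and the female age by genotype term 1 with the likelihood-ratio test. The cause of these moves was not tested.

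Leaving out 1 rat gave 0 to 2 unlisted calls in P21 males (0 without R1781H), and 3 to 8 higher members, 0 to 3 lower members and 0 to 1 unlisted calls in P21 females. Higher members in P21 females numbered 3 without each of the WT females R1790A, R1796A and R1797C, and 5 without each of R1789B, R1790B and R1790C. The WT age difference gave 0 to 2 members in each sex, 2 without s70-A in males and 2 without s69-D in females.

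Under a replicate block on the title number, females at P56 kept 9 higher and 7 lower members and 2 unlisted calls, and females at P21 kept 2 higher and 0 lower. The deviations of same-numbered R237H and WT rats correlated at 0.21, 0.04, 0 and -0.02 in P56 males, which does not meet the criterion for pairs, and at 0.08 and 0.42 in P56 females and 0, 0.06 and 0.34 in P21 females, and not every rat correlated best with its own number. Each female group shares 2 numbers, so the block sets rats aside. P21 males share a single number, so no block was fitted. The count over all channel genes of the name pattern was not run, because no table here pairs the other gene identifiers with symbols. Depth limits Trpm1, Kctd19 and P2rx1 most in the WT rats, and intervals cover spread between rats only.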
